A study of Mus musculus with 12 samples.

Results

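The genes described here are the receptor chains of the interleukin-1 (IL-1) family, Il1r1, Il1r2, Il1rl1, Il18r1, Il18rap and Il1rap, with the adaptor Myd88. They were taken by symbol, and all 7 were found among the 40840 genes of the deposited count files. IL-1 binds a pair of chains, the ligand-binding IL1R1 and the accessory chain IL1RAP, and their joined intracellular TIR domains recruit MYD88, which passes the signal on to NF-κB and MAP kinases. IL1R2 binds the same ligand but has no TIR domain and acts as a decoy, whereas IL1RL1 (ST2) with IL1RAP receives IL-33 and IL18R1 with IL18RAP receives IL-18. In CD4+ T cells, IL1R1 is known for its part in Th17 responses, the IL-18 receptor for Th1 responses and ST2 for Th2 cells and regulatory T cells.

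The study asked how IL-6 shapes the priming of T cells by an inhaled allergen. OTII cells, which are TCR-transgenic CD4+ T cells specific for ovalbumin (OVA), were transferred into WT (B6) or Il6-/- recipients. All recipients were sensitized intranasally with house dust mite extract (HDM) and OVA, and, by the study's methods, with lipopolysaccharide (LPS) added to the HDM. Donor cells were sorted with antibodies to B220, CD4, CD44 and CD45.1 from the mediastinal lymph nodes, although the labels name blood as the tissue. Cells from WT recipients and from Il6-/- recipients were sequenced on Day 3 and on Day 5, with 3 libraries in each of the 4 groups. The donor cells carry no Il6 deletion, so the genotype is that of the host in which they were primed. The age of the animals and the number pooled for a library are not given in the sources used here, so p-values measure the spread between libraries, which may be technical in part.

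Libraries held 16125947 to 26111657 reads counted on genes, and CPM below are these counts scaled to library size with TMM factors. As a check of the cell type, the 7 CD4+ T-cell marker genes summed to 5613 to 11381 CPM in a library. The host genotype could not be read from the donor cells, in which Il6 had 0 to 5 counts per library. Neutrophil markers (S100a8, S100a9, Ly6g, Mpo and Elane) varied within the groups, from 0.217 to 85.9 CPM in sum, and are given beside the genes they bear on. Replicates differed from each other by more than sampling noise in all groups.

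Of the 7 genes, 5 lie close together on chromosome 1. Il1r2 (ENSMUSG00000026073, chr1:40113239-40164391), Il1r1 (ENSMUSG00000026072, chr1:40264174-40356417), Il1rl1 (ENSMUSG00000026069, chr1:40468730-40504575), Il18r1 (ENSMUSG00000026070, chr1:40504712-40540014) and Il18rap (ENSMUSG00000026068, chr1:40554522-40590865) are all on the plus strand of the GRCm39 build. Together with Il1rl2, the receptor chain for IL-36, they form a run of 6 protein-coding genes over 477.6 kb, and only 136 bases separate the end of Il1rl1 from the start of Il18r1. Il1rap (ENSMUSG00000022514, chr16:26400350-26548880, plus strand) and Myd88 (ENSMUSG00000032508, chr9:119165000-119170486, minus strand) lie elsewhere. Reads were counted without regard to strand, and the exons of Myd88 share 628 bases with Acaa1a and those of Il1rap share 1425 bases with Gm20319, so the counts of these genes are less certain. Gm20319 itself had 0 counts in 11 libraries and 1 count in the other, whereas Acaa1a lay between 68.4 and 118 CPM.

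IL-6 signals through STAT3, so the 250 bases before each RefSeq transcription start were searched on both strands for the STAT letters TTCNNNGAA. Among 32851 such windows of all genes, 7.02% held a match. Il18r1 had 3 such windows, Il1r1 and Il1rl1 had 2 each and the other members 1 each. Windows of Il1r2, Il18r1 and Myd88 held 4 matches in all, and both Il18r1 matches lay in the same window. They are shown with the match in capitals, on the gene's own strand, because these genes and Il1r1 are compared between hosts below.

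Il1r2, chr1:40125132-40125160, plus strand, in an exon of another Il1r2 transcript: cgggtgctttTTCAAGGAActtccgacta
Il18r1, chr1:40504937-40504965, plus strand, in an exon of another Il18r1 transcript: tcggggttagTTCTGGGAActgtggagct
Il18r1, chr1:40505004-40505032, plus strand, not wholly in an exon: agtacaggtcTTCCCAGAActgaaagctt
Myd88, chr9:119169112-119169140, minus strand, in an exon of another Myd88 transcript: agggcggagcTTCTCGGAAagcgaaagaa

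The matches began 111 bases before a start of Il1r2, 219 and 152 bases before a start of Il18r1, and 46 bases before a start of Myd88. Each of these windows lies inside the annotated gene and not at its 5′ end. No match was found in the windows of Il1r1, Il1rl1, Il18rap or Il1rap. The AP-1 letters TGANTCA were in 6.75% of all windows and in no window of the 7 genes. Of the members, Il1r1 differed most between the hosts, and its 2 windows are therefore given as the stretches that lie outside annotated exons.

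Il1r1, window at the gene's 5′ end, chr1:40263990-40264173, plus strand: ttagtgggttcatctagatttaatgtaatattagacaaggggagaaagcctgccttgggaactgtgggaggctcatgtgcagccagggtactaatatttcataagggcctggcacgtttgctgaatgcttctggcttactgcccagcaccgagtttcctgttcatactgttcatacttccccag
Il1r1, window of an internal start, chr1:40305496-40305697, plus strand: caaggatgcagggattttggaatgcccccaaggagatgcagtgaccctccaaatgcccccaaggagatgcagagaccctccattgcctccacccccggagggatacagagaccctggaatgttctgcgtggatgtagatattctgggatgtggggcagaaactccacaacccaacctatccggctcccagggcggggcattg

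A match is a run of letters and not a bound site, and no binding was measured here.

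Cells primed in Il6-/- recipients held 10.3-fold less Il1r1 transcript than cells primed in WT recipients on Day 3, and on Day 5 the difference was 4.12-fold. Il1r2 was 4.48-fold lower on Day 3, and its test was not passed on Day 5. Il1rl1 was at or near 0 counts in all libraries. Il1rap, the partner chain of IL1R1 and ST2, and the adaptor gene Myd88 did not pass the test between hosts on either day. In sorted bulk cells, fewer cells that express a gene and less RNA per cell cannot be told apart.

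**Figure D1:**
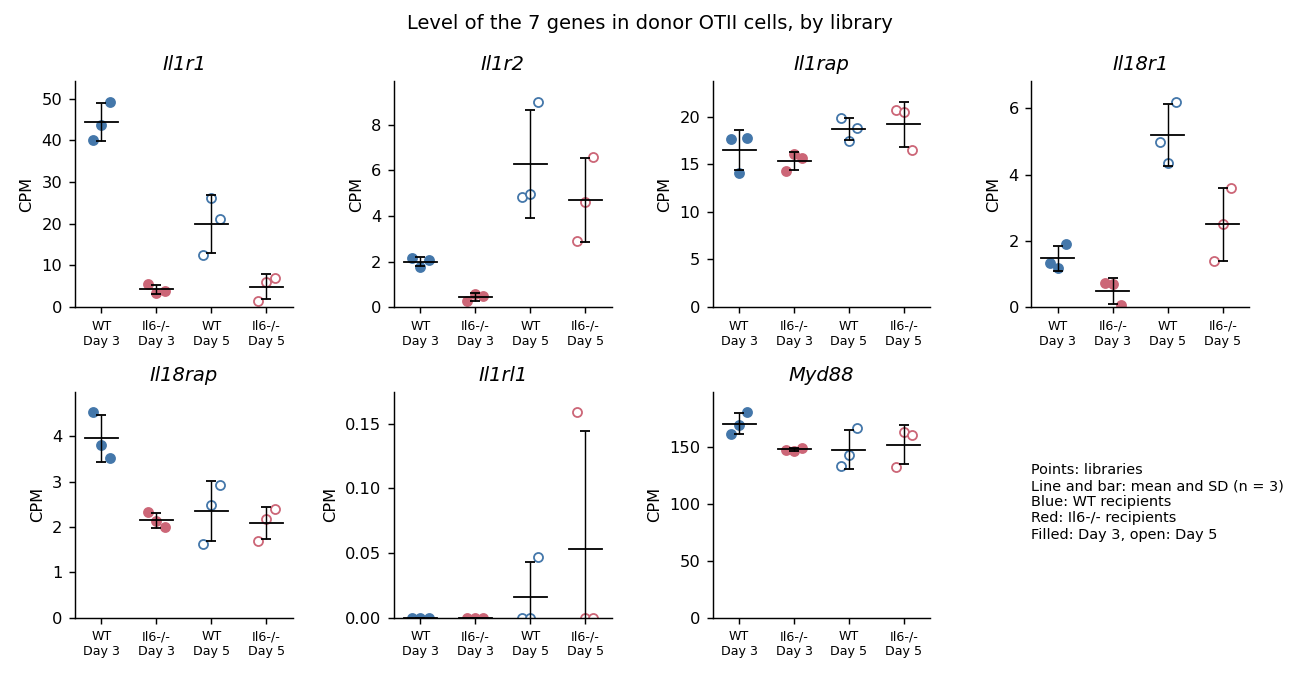
CPM (vertical axis, from 0, a scale of its own for each gene) of the 7 genes in the 12 libraries, by host genotype and day, with the mean and SD of 3 libraries. Il1r1 was above 12 CPM in all WT libraries and below 7.1 CPM in all Il6-/- libraries, whereas the points of Il1rap and Myd88 lie close together in the 4 groups.

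Il1r1 was measured at 40.1, 43.7 and 49.3 CPM in the WT libraries of Day 3 and at 5.49, 3.45 and 3.93 CPM in the Il6-/- libraries. The groups did not overlap, and the lowest WT library was far above the highest Il6-/- library. The log2 fold change was -3.37 ± 0.38 (SE, n = 3 per group) with an FDR of 7.0e-05 in edgeR's quasi-likelihood test with Benjamini-Hochberg adjustment over 13570 genes. On Day 5, the WT libraries held 12.4, 26.1 and 21.2 CPM and the Il6-/- libraries 1.43, 6.04 and 7.03 CPM, again without overlap. The log2 fold change on Day 5 was -2.04 ± 0.38 (edgeR FDR 0.0062). All libraries had at least 27 counts of the gene, so the values are well above the counting floor of 3 counts (0.115 to 0.186 CPM).

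Il1r2, the decoy, was present at low levels on Day 3, with 2.15, 1.78 and 2.06 CPM in WT libraries and 0.264, 0.583 and 0.474 CPM, or 5 to 11 counts, in Il6-/- libraries. All Il6-/- libraries were lower than all WT libraries, with a log2 fold change of -2.16 ± 0.42 (edgeR FDR 0.0035). On Day 5 the level was higher in both hosts, at 4.84, 4.99 and 9.03 CPM in WT libraries and 2.91, 4.63 and 6.61 CPM in Il6-/- libraries. The groups overlapped on that day, and the log2 difference of -0.41 ± 0.33 did not pass (edgeR FDR 0.54).

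Neutrophils are known to carry much Il1r2, and the sum of their 5 markers was 0.217 to 40.1 CPM in WT and 0.317 to 30.3 CPM in Il6-/- libraries on Day 3, and 4.52 to 85.9 CPM and 0.293 to 32.6 CPM on Day 5. None of the 5 markers was at 0 in every library. In the 4 libraries with S100a8 below 0.16 CPM, Il1r2 was at 2.06 CPM (WT, Day 3), 0.264 CPM (Il6-/-, Day 3), and 4.63 and 6.61 CPM (Il6-/-, Day 5). The third WT library of Day 5 held the most S100a8, 46.5 CPM, and also the most Il1r2, 9.03 CPM. Without that library the log2 difference of Il1r2 on Day 5 was -0.057 (edgeR FDR 0.96). The part of neutrophil transcripts in the difference between hosts was not tested.

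The IL-18 receptor chains were lower in sign on Day 3 without passing the test. Il18r1, which binds IL-18, was at 1.33, 1.19 and 1.90 CPM in WT and 0.739, 0.689 and 0.0474 CPM in Il6-/- libraries. The last value is a lone count in the third Il6-/- library, and the groups did not overlap. Its log2 difference was -1.59 ± 0.57 with an edgeR FDR of 0.078, and without that library it was -1.03 with an edgeR FDR of 0.21. It passed in 2 of 21 alternatives. Il18rap, the signalling partner of Il18r1, was at 4.53, 3.81 and 3.53 CPM in WT and 2.32, 2.12 and 1.99 CPM in Il6-/- libraries, with a log2 difference of -0.88 ± 0.28 and an edgeR FDR of 0.052. The call on Il18rap turned on the setting, since the FDR was under 0.05 in 11 of 21 alternatives.

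On Day 5, Il18r1 was at 4.99, 4.36 and 6.21 CPM in WT and 1.38, 2.52 and 3.59 CPM in Il6-/- libraries. These groups did not overlap either, but the log2 difference of -1.05 ± 0.47 did not pass (edgeR FDR 0.22). Il18rap was at 1.63, 2.49 and 2.92 CPM in WT and 1.69, 2.17 and 2.39 CPM in Il6-/- libraries of Day 5, within the same range. NK cells also carry the IL-18 receptor, and their 4 markers summed to 3.75 to 5.62 CPM in WT and 18.2 to 26.4 CPM in Il6-/- libraries of Day 3, the reverse of the order of Il18r1 and Il18rap. On Day 5 the sums were 30.4 to 36.5 CPM in WT and 19.2 to 23.3 CPM in Il6-/- libraries. This was the same order as that of Il18r1 on Day 5. In WT recipients the sum was higher on Day 5 than on Day 3, as Il18r1 was. In Il6-/- recipients the sums of the days overlapped. That sum came mostly from Klrb1c, while Klra8 was at 0 in every library, and 3 of the 4 markers had at most 3 counts in any library. Its part in the Il18r1 and Il18rap values was not tested.

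Il1rl1, the IL-33 receptor chain, had 0 counts in 10 of 12 libraries, 1 count in the third WT library of Day 5 and 3 counts in the first Il6-/- library of Day 5. It was not tested. Mast cells and basophils, which are known to express it, left almost no trace, with a marker sum of at most 0.370 CPM and Mcpt4, Fcer1a and Tpsb2 at 0 in every library. At this depth, a level under the floor of 3 counts, 0.115 to 0.186 CPM, could have been missed.

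The shared chain Il1rap was at 17.6, 14.1 and 17.8 CPM in WT and 14.3, 16.1 and 15.7 CPM in Il6-/- libraries of Day 3. On Day 5 it was at 19.9, 17.5 and 18.8 CPM in WT and 20.7, 20.4 and 16.4 CPM in Il6-/- libraries. The ranges overlapped on both days, with log2 differences of -0.10 ± 0.13 (edgeR FDR 0.68) and 0.04 ± 0.13 (edgeR FDR 0.92).

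Myd88 was the most abundant transcript of the 7 genes, with 161, 169 and 180 CPM in WT and 147, 146 and 149 CPM in Il6-/- libraries of Day 3. The groups did not overlap, but the log2 difference was small, -0.21 ± 0.10, and did not pass (edgeR FDR 0.18), although it passed in 2 of 21 alternatives. On Day 5 the WT libraries held 133, 143 and 166 CPM and the Il6-/- libraries 132, 163 and 160 CPM, with a log2 difference of 0.04 ± 0.10 (edgeR FDR 0.86).

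**Figure D2:**
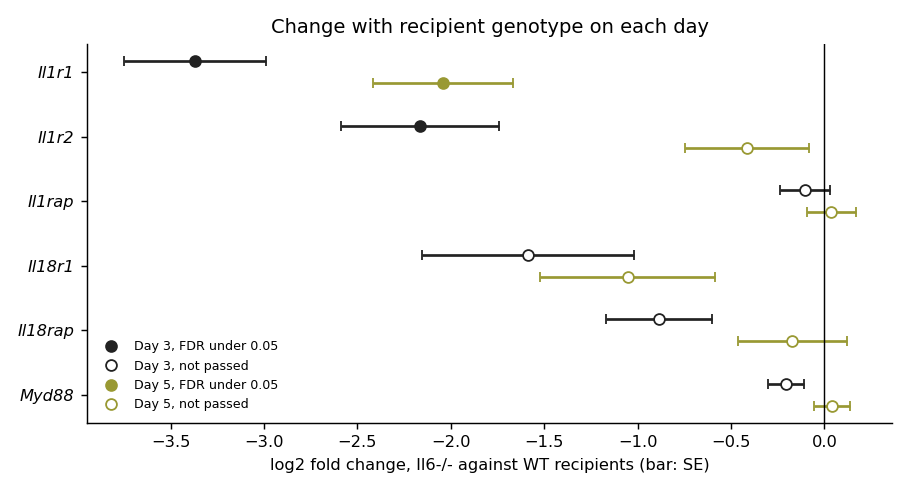
Log2 fold change of Il6-/- against WT recipients (horizontal axis, bars are the SE of the edgeR fit) for the 6 genes tested, on Day 3 (black) and Day 5 (olive), filled where the FDR was under 0.05. Il1r1 lies furthest from 0 on both days, at -3.37 and -2.04, Il1r2 passed on Day 3 and not on Day 5, and Il1rap and Myd88 lie near 0.

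Of the 7 genes, 6 had enough counts to be tested. On Day 3, 2 passed at an FDR under 0.05, both lower in Il6-/- recipients and both by more than 2-fold. Of all genes tested, 13.7% passed in either direction, 6.19% passed as lower and 1.81% passed as lower by at least 2-fold. In 5 of the 6 the Il6-/- libraries all lay below the WT libraries, as in 15.7% of all genes. The median log2 fold change of the 6 was -1.24, against 0.015 over all genes. On Day 5, 1 of the 6 passed as lower, with a background of 3.35%, and 2 had groups that did not overlap, with a background of 11%. The median of the 6 on Day 5 was -0.29, against 0.011 over all genes. For a gene taken alone, the exact permutation test over 3 against 3 libraries cannot go below a two-sided p of 0.1, which all genes with groups that did not overlap reached.

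Whether the host genotype mattered more on Day 3 was tested as the interaction, the change on Day 3 minus the change on Day 5. None of the 6 passed in edgeR, where 4.92% of all genes did, although 2 had an unadjusted p under 0.05. For Il1r1 the difference of the changes was -1.33 ± 0.53 (edgeR FDR 0.17), and for Il1r2 -1.75 ± 0.54 (edgeR FDR 0.076). Replicate numbers went together on Day 5, and with the replicate number as a block within each day both genes passed, Il1r1 at -1.24 (edgeR FDR 0.023) and Il1r2 at -1.75 (edgeR FDR 0.021). DESeq2 called 1 of the 6, Il1r2. The difference between days therefore depended on the fit, and it was also called for both genes when the first Il6-/- library of Day 5, which held the least Il1r1, was left out.

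The receptors also differed between the days, and not in a common direction. The share of reads that fell on no gene differed too, at 37.8% to 39.8% on Day 3 and 43.3% to 47.5% on Day 5. Its part in the differences between days was not tested. In WT recipients, Il1r1 fell from Day 3 to Day 5 by 1.16 ± 0.34 on the log2 scale (edgeR FDR 0.0085), while Il1r2 rose by 1.65 ± 0.35 (edgeR FDR 8.5e-04) and Il18r1 rose by 1.82 ± 0.49 (edgeR FDR 0.0050). Il18rap fell by 0.75 ± 0.28 (edgeR FDR 0.033), a call that was kept in 14 of 21 alternatives. Thus 4 of the 6 genes passed in WT recipients, 2 higher and 2 lower. In this comparison 56.7% of all genes passed, 29.5% as higher and 27.1% as lower, so a call between days is common. Il1rap and Myd88 did not pass, at 0.18 and -0.21.

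In Il6-/- recipients Il1r1 did not change between the days by the test, at 0.17 ± 0.41 (edgeR FDR 0.73). Il1r2 rose by 3.40 ± 0.41 (edgeR FDR 4.6e-06) and Il18r1 rose by 2.35 ± 0.56 (edgeR FDR 0.0019), the latter from 28 counts in all on Day 3. Il1rap rose by 0.32 ± 0.13 (edgeR FDR 0.047), which held in only 6 of 21 alternatives. These 3 were the members that passed, all higher, where 60.5% of all genes passed and 30.4% passed as higher.

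Per length, the order of the transcripts differed between the groups. Levels are given here as CPM per kb of exon, with the exons of all transcripts of a gene joined, which lowers the level of Il1rap with its 15282 exon bases most. Myd88 led in all groups, with means of 37.9 to 43.8. In WT recipients on Day 3, Il1r1 followed with 6.51 ± 0.68 (SD, n = 3), then Il1rap with 1.08 ± 0.14, Il1r2 with 0.791 ± 0.076, Il18rap with 0.586 ± 0.076 and Il18r1 with 0.298 ± 0.077, and no neighbours in this order overlapped. In Il6-/- recipients on Day 3, Il1rap came before Il1r1, with 1.00 ± 0.063 against 0.630 ± 0.16, so the ligand-binding chain was below its partner by this measure. There, Il18rap followed, and the last ones, Il1r2 and Il18r1, overlapped.

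On Day 5 in WT recipients, Il1r1 and Il1r2 overlapped at 2.92 ± 1.0 and 2.49 ± 0.94, as did Il1rap and Il18r1 at 1.22 ± 0.079 and 1.05 ± 0.19, and Il18rap was below them at 0.347 ± 0.097. In Il6-/- recipients on Day 5, Il1r2 came next to Myd88 with 1.87 ± 0.73 and overlapped with Il1rap at 1.26 ± 0.16. Il1r1 was at 0.709 ± 0.44 and overlapped with Il18r1 at 0.506 ± 0.22, which in turn overlapped with Il18rap at 0.309 ± 0.053. Il1rl1 came last in every group.

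Since Il1r1 and Il1r2 compete for IL-1, their transcripts were set against each other within each library. Il1r2 made up 12.6%, 9.92% and 10.2% of the sum of both, per length, in WT libraries of Day 3 and 11.5%, 31.4% and 24.6% in Il6-/- libraries. These ranges overlapped (exact permutation test, two-sided, p = 0.2). On Day 5 the share was 51.3%, 34.1% and 53.6% in WT and 84.6%, 67.5% and 71.8% in Il6-/- libraries. Per length, the decoy transcript was thus the larger part in all 3 Il6-/- libraries and in 2 of 3 WT libraries of Day 5. Its mean share was 74.6% ± 8.93 (SD, n = 3) in Il6-/- libraries against 46.3% ± 10.7 in WT libraries. The exact permutation test gave the smallest p it can, 0.1. Which transcript is larger rests on the joined exon lengths, 6816 bases for Il1r1 and 2522 for Il1r2. By CPM, Il1r2 was above Il1r1 only in the first Il6-/- library of Day 5, at 2.91 against 1.43 CPM. The share was also higher on Day 5 than on Day 3 in both hosts without overlap, from 10.9% ± 1.49 in WT and from 22.5% ± 10.1 in Il6-/- libraries. The neutrophil marker S100a8 was at 13.5, 2.49 and 46.5 CPM in the WT libraries of Day 5. In the Il6-/- libraries of that day it was at 18.5, 0.0586 and 0.156 CPM. The part of neutrophil transcripts in the share was not tested.

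**Figure D3:**
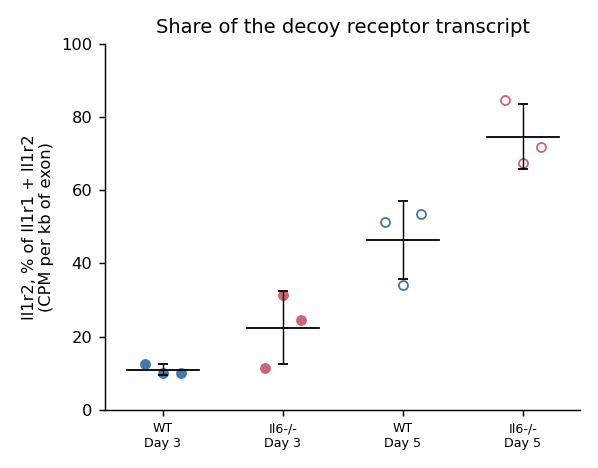
Il1r2 as a percentage of Il1r1 plus Il1r2, in CPM per kb of exon (vertical axis, 0 to 100%), in each library by host genotype and day, with the mean and SD of 3 libraries. The share lies at 9.92% to 31.4% on Day 3 and at 34.1% to 84.6% on Day 5, and on Day 5 all Il6-/- libraries are above all WT libraries.

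The chains of the IL-18 receptor were compared in the same way. Il18r1 per Il18rap, per length, was 0.522 ± 0.19 in WT and 0.305 ± 0.24 in Il6-/- libraries of Day 3, with overlap (exact permutation test, two-sided, p = 0.6). On Day 5 it was 3.17 ± 0.93 in WT and 1.59 ± 0.47 in Il6-/- libraries, without overlap and at the smallest exact permutation p of 0.1. By this per-length measure, the binding chain was below its partner on Day 3 in all libraries and above it on Day 5 in all libraries. The first Il6-/- library of Day 5 was the closest, with a ratio of 1.11. There, by CPM, Il18r1 was below Il18rap, at 1.38 against 1.69 CPM.

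Along chromosome 1, the differences between hosts were not limited to the members. Of the 6 neighbouring receptor genes, 5 were tested and all 5 were lower in sign on Day 3, with Il1r2, Il1r1 and Il1rl2 passing. Of all genes tested, 6.19% passed as lower on Day 3, and the median log2 fold change of all genes was 0.015. Il1rl2 was at 31.6, 32.5 and 34.1 CPM in WT and 22.8, 19.3 and 21.4 CPM in Il6-/- libraries of Day 3, a log2 fold change of -0.63 ± 0.14 (edgeR FDR 0.0067). On Day 5 its log2 difference was -0.26 ± 0.14 and did not pass (edgeR FDR 0.33). Outside the run, Map4k4, a kinase gene before Il1r2, was lower by 0.50 ± 0.10 on Day 3 on the log2 scale (edgeR FDR 0.0029). Mfsd9, the next tested gene after Il18rap, did not pass at 0.39 ± 0.42 (edgeR FDR 0.62). Rfx8, Slc9a4 and Slc9a2 had too few counts to be tested.

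**Figure D4:**
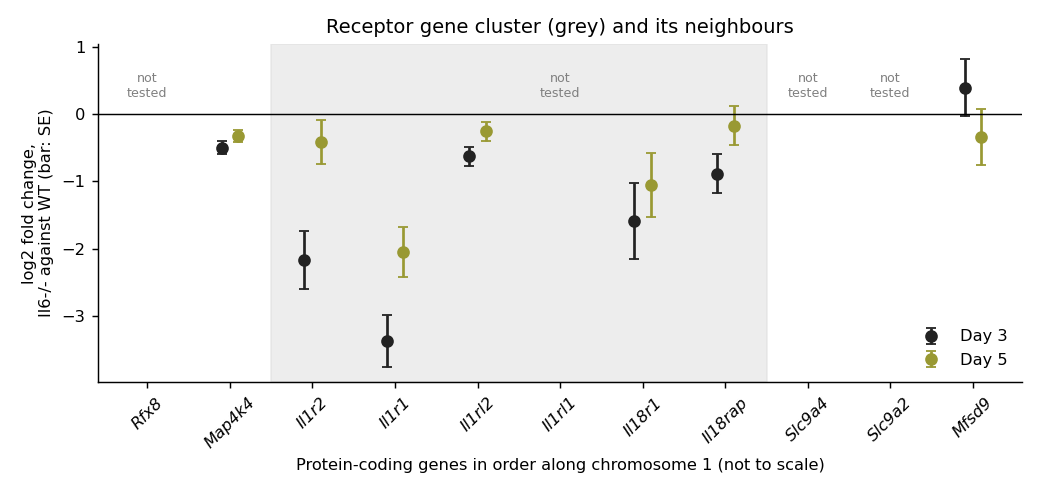
Log2 fold change of Il6-/- against WT recipients (vertical axis, bars are the SE of the edgeR fit) for the protein-coding genes in and around the receptor cluster (grey), in their order along chromosome 1 and not to scale, on Day 3 (black) and Day 5 (olive). Within the cluster the Day 3 values run from -3.37 at Il1r1 to -0.63 at Il1rl2, outside it they are -0.50 at Map4k4 and 0.39 at Mfsd9, and 4 genes were not tested.

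Among all tested genes, those whose pattern over the 12 libraries was closest to Il1r1 were Il17re, Il23r and Klrc1, with a root-mean-square difference of centred log2 CPM of 0.652, 0.743 and 0.748. Il17re, a chain of the IL-17C receptor, averaged 2.26 ± 0.53 CPM (SD, n = 3) on Day 3 after priming in WT recipients and 0.120 ± 0.082 CPM after priming without IL-6, and 1.21 ± 0.065 and 0.220 ± 0.069 CPM on Day 5. Il23r, the specific chain of the IL-23 receptor, was at 2.59 ± 1.1 and 0.137 ± 0.11 CPM on Day 3 and at 0.589 ± 0.37 and 0.0174 ± 0.030 CPM on Day 5. Klrc1, which encodes the lectin-like receptor NKG2A, was at 1.33 ± 0.29 and 0.0354 ± 0.061 CPM on Day 3 and at 0.338 ± 0.32 and 0.0347 ± 0.060 CPM on Day 5. All of these were low, and in Il6-/- libraries they had 0 to 5 counts each.

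The closest genes to Il1r2 were Gm30712 (0.343), Pax5 (0.366) and LOC118568352 (0.396), by the same root-mean-square difference. Pax5 is a B-cell factor and averaged 0.841 ± 0.092 CPM in the WT libraries of Day 3 and 0.171 ± 0.19 CPM in the Il6-/- libraries. The sum of the 5 B-cell markers was 5.19 to 8.36 CPM in these WT libraries and 6.36 to 8.10 CPM in these Il6-/- libraries, in the same range, and none of the 5 was at 0 in every library. The closest to Il18r1 were LOC115488342 (0.343), 4930502C15Rik (0.447) and Gm17455 (0.525). Il18rap was closest to Ubtd1 (0.193), Atf6 (0.203) and Slc4a8 (0.215), Il1rap to Ess2 (0.0916), Ikbkb (0.0937) and Aak1 (0.0968), and Myd88 to Coro1a (0.0652), Ppil2 (0.0683) and Gga1 (0.0715).

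The rest of the pathway was followed in lists of 63 genes. Of 11 ligands and antagonists, 3 were tested, and 1, Il18, passed on Day 3, as higher, where 7.52% of all genes did. Il18, the ligand of the Il18r1 and Il18rap chains, was at 1.29, 1.04 and 1.03 CPM in WT and 4.38, 5.04 and 5.17 CPM in Il6-/- libraries of Day 3. It was higher by 2.11 ± 0.26 on the log2 scale (edgeR FDR 1.4e-04), while neither of these chains passed. On Day 5 it was at 3.56, 3.79 and 4.09 CPM in WT and 4.71, 3.34 and 5.41 CPM in Il6-/- libraries, which overlapped, and no ligand passed. Il1b, the main IL-1 ligand, stayed under 0.371 CPM in all libraries and was not tested. Il1a, also an IL-1 ligand, was tested and did not pass on either day. It reached 1.27 CPM in a WT library of Day 5.

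Of 4 other receptors, 2 were tested and both passed as lower on Day 3, where 6.19% of all genes did. These were Il1rl2, above, and Sigirr, an inhibitory receptor of the family, at 89.5, 103 and 83.1 CPM in WT and 59.2, 60.3 and 61.4 CPM in Il6-/- libraries. Its log2 fold change on Day 3 was -0.61 ± 0.085 (edgeR FDR 3.5e-04). Neither passed on Day 5.

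Of 24 genes downstream of MYD88, 23 were tested. On Day 3, 1 passed as higher, on a background of 7.52%. This was Ube2n, a ubiquitin-conjugating enzyme that works with TRAF6, which was higher by 0.25 ± 0.079 on the log2 scale (edgeR FDR 0.045). On Day 5, 3 passed, all lower, where 3.35% of all genes did. Peli1, a ubiquitin ligase, was at 184, 179 and 99.7 CPM in WT and 76.4, 56.1 and 56.2 CPM in Il6-/- libraries of Day 5, a log2 fold change of -1.29 ± 0.19 (edgeR FDR 0.0025). Chuk, which encodes IKKα, fell by 0.40 ± 0.097 (edgeR FDR 0.030) and Mapk14, which encodes the kinase p38α, fell by 0.93 ± 0.23 (edgeR FDR 0.034). The list medians were 0.0056 on Day 3 and 0.027 on Day 5, near those of all genes.

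Of 12 Toll-like receptors, which also use MYD88 for the most part, 6 were tested, and 2 passed on Day 3, both lower, where 6.19% of all genes passed as lower. Tlr1 averaged 41.5 ± 4.7 CPM in the WT libraries and 27.4 ± 2.3 CPM in the Il6-/- libraries (log2 -0.59 ± 0.11, edgeR FDR 0.0021). Tlr12 was at a much lower level, 0.840 ± 0.54 and 0.167 ± 0.10 CPM, with a log2 fold change of -2.25 ± 0.70 (edgeR FDR 0.044). Its groups overlapped on Day 3, since the first WT library held 0.234 CPM and the highest Il6-/- library 0.237 CPM. On Day 5 the order was the reverse, at 0.102 to 0.235 CPM in WT and 0.586 to 0.688 CPM in Il6-/- libraries without overlap, but no Toll-like receptor passed on that day. Myeloid and dendritic cells carry these receptors too, and their 7 markers summed to 6.41 to 18.96 CPM in WT and 9.77 to 14.1 CPM in Il6-/- libraries of Day 3.

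Of 12 feedback and target genes of NF-κB, all were tested, and 3 passed as higher and 2 as lower on Day 3, where 7.52% and 6.19% of all genes did. Nfkbid (0.59 ± 0.084, edgeR FDR 3.6e-04) and Nfkb2 (0.35 ± 0.087, edgeR FDR 0.016) were higher, as was Nfkb1 (0.36, edgeR FDR 0.035), which is named here after its value was seen. Nfkbiz, the gene of the nuclear inhibitor IκBζ, fell by 0.68 ± 0.11 (edgeR FDR 8.5e-04) and Bcl3, another nuclear member of that family, fell by 1.06 ± 0.24 (edgeR FDR 0.0091). Bcl3 was at 69.6, 48.9 and 40.0 CPM in WT and 27.6, 24.4 and 24.0 CPM in Il6-/- libraries of Day 3, without overlap. On Day 5, 2 passed, both lower on a background of 3.35%, Bcl3 by 1.24 ± 0.25 (edgeR FDR 0.011) and Relb by 0.50 ± 0.11 (edgeR FDR 0.018). Bcl3 was the gene of these lists that passed on both days.

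**Figure D5:**
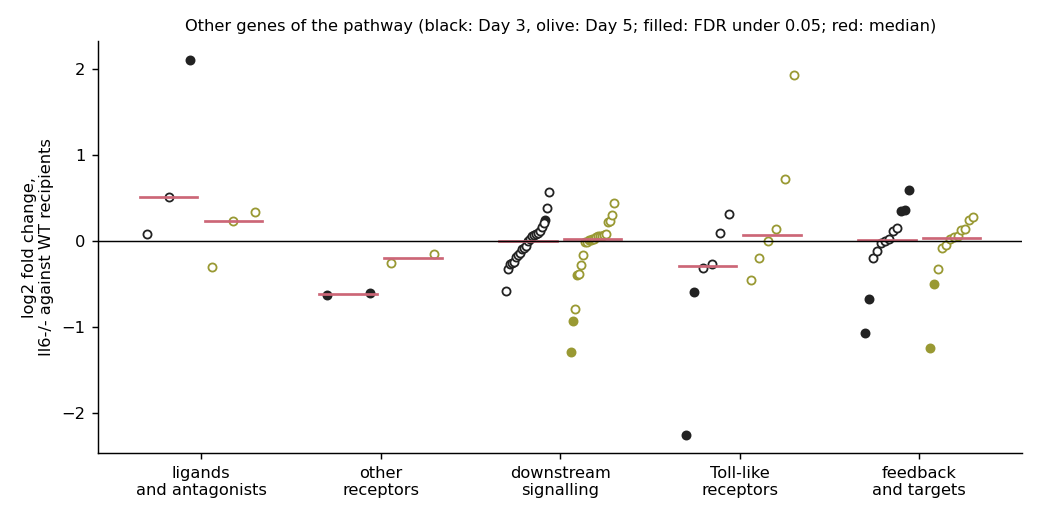
Log2 fold change of Il6-/- against WT recipients (vertical axis) for the tested genes of the 5 pathway lists, on Day 3 (black) and Day 5 (olive), filled where the edgeR FDR was under 0.05, with the list medians as red lines. Most of the downstream genes lie near 0, with medians of 0.0056 and 0.027, and Il18 stands highest on Day 3 at 2.11.

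Markers of other cell types that a sort could carry over were also measured. The 2 CD8 T-cell markers summed to 56.6 to 85.9 CPM, nearly all of it Cd8b1, while Cd8a was at 1.70 CPM at most. The 4 lung epithelial markers summed to 0.475 to 18.4 CPM, and the myeloid markers to at most 40.4 CPM in a library. Markers of regulatory T cells, which can express ST2, summed to 402 to 474 CPM in WT and 444 to 539 CPM in Il6-/- libraries of Day 3, and to 420 to 494 and 450 to 510 CPM on Day 5, with no gene at 0 in every library. Foxp3, the defining gene of that list, was at 6.63, 6.08 and 10.1 CPM in the WT libraries of Day 3 and at 5.81, 3.92 and 5.50 CPM in the Il6-/- libraries, lower without overlap while the ranges of the sum overlapped. Il2ra, which the list also holds, was at 24.0, 19.1 and 37.2 CPM in the former and 96.7, 62.5 and 81.3 CPM in the latter. The paper describes Il2ra as an IL-2-driven gene that was higher on Day 3 in OTII cells from Il6-/- recipients. On Day 5 Foxp3 was at 4.63, 1.92 and 1.97 CPM in WT and 6.62, 3.98 and 3.44 CPM in Il6-/- libraries, with overlap. The sum of the list came mostly from Capg, Ctla4 and Ikzf2. The part of regulatory T cells in the receptor values was not tested.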

How the data were processed

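The authors sequenced poly(A) RNA of donor OTII cells in 12 samples from ultra-low input, as single-end reads. Per the submitters' processing notes and the methods, reads were trimmed with Trim Galore 0.4.4, aligned to GRCm39 with STAR 2.5.2a and counted with HTSeq 0.6.1p1 without strand. The deposited values are raw read counts per gene symbol, and the share of reads that fell on no gene was 37.8% to 47.5%. A table of log2 CPM that the authors also deposited was not used. Reads of near-identical stretches are lost by this counting, and overlapping genes cannot be told apart without strand.

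The model was fitted with edgeR 4.0.16 under R 4.3.3 (limma 3.58.1 and DESeq2 1.42.0 as alternatives). Low counts were removed with filterByExpr, which left 13570 of 40840 genes, library sizes were scaled by TMM (factors 0.944 to 1.06), and a single quasi-likelihood model held 1 coefficient per group. A gene was called when its FDR was under 0.05, and the 2-fold criterion of the study is stated where it applies. The SE is the log2 fold change divided by the root of F. The fit was tested on simulated data. The members and lists were chosen with earlier results of these data known. The named genes are the 7 members, up to 4 genes of smallest p that passed per pathway list and day, and the 3 nearest genes of each member by log2 CPM with a prior count of 2. Positions came from GENCODE on GRCm39. RefSeq start windows (GRCm38.p6 table) were located in GRCm39 by their sequence, each at a single place. For IL-36 the older symbols of the files were used.

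Replicate numbers are shared by the groups in the labels. Samples with the same number deviated together on Day 5 (correlations of 0.243, 0.207 and 0.129) but not on Day 3 (0.033, 0.060 and 0.032), and the pairing comes from the data, not from the labels. Depth limits low genes, and floors cover counting error only.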

Additional observations from a re-analysis of the deposited data

Results flagged for a closer look

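None of the members was flagged, since the groups of 3 libraries are too small to test for an outlying library and no member passed the edgeR test of the interaction. In the pathway lists, the change with the host genotype differed between Day 3 and Day 5 (Day 3 minus Day 5, log2, edgeR FDR under 0.05) for 8 genes. It was more positive on Day 3 for Il18 (1.87), Peli1 (1.02), Relb (0.65) and Nfkbid (0.54). It was more negative on Day 3 for Nfkbiz (-0.60), Tlr1 (-0.60) and Sigirr (-0.46). For Tlr12 the difference was -4.19, from 1 to 23 counts per library.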

How the results depend on the processing

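Of 624 values recomputed under alternatives, 560 kept their direction and their side of the threshold, 29 came to pass, 22 no longer passed and 13 changed sign. Il1r1 kept its call on both days in all 21 alternatives, from -3.58 to -3.23 on Day 3 and from -2.43 to -1.60 on Day 5, and Il1r2 on Day 3 kept its own, from -2.40 to -1.91. On Day 3, 4 members in place of 2 passed with DESeq2, with the 2 groups alone and with the replicate block. In the interaction, 0 members passed, against 2 without the low-count filter, 1 with DESeq2 and 2 with the replicate block, and leaving out a library gave 0 to 2 (1 without the third WT library of Day 5, 2 without the first Il6-/- library of Day 5). The block left 1 member passing on Day 5 and, between days, 3 in place of 4 in WT and 2 in place of 3 in Il6-/- recipients.

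From Day 3 to Day 5 in Il6-/- recipients, the sign changed for Il1r1 with limma-voom (-0.11), for Il18rap with upper-quartile scaling (0.19) and with no scaling (0.11), and for Myd88 without the low-count filter (-0.019). With a library left out, that comparison ran from -0.22 to 0.61 for Il1r1, from -0.15 to 0.087 for Il18rap and from -0.0032 to 0.13 for Myd88. On Day 5 between hosts the ranges were -0.37 to 0.018 for Il18rap, -0.021 to 0.14 for Il1rap and -0.027 to 0.14 for Myd88, and in the interaction -0.96 to 0.026 for Il18r1. None of these had passed, and the cause was not tested.

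Over all genes, 1861 passed on Day 3, and 942 to 2042 with a library left out. On Day 5, 626 passed, against 1397 without the filter, 1127 with DESeq2, 359 with the 2 groups alone, 1592 with the replicate block and 225 to 1169 with a library left out. In the interaction, 668 passed, against 1300, 1132 and 1564 without the filter, with DESeq2 and with the block, and 235 to 943 with a library left out. With no scaling, 703 genes were higher and 1088 lower on Day 3 (1021 and 840 with TMM), 273 and 396 on Day 5 (172 and 454), and 228 and 420 in the interaction (424 and 244). With upper-quartile scaling these were 791 and 974 on Day 3 and 344 and 307 in the interaction. That scaling moved the median change from Day 3 to Day 5 from 0.091 to 0.29 in WT and from 0.087 to 0.32 in Il6-/- recipients, with 5394 higher and 2712 lower (4004 and 3684 with TMM) and 5615 and 3025 (4122 and 4089).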
